A study of Mus musculus with 12 samples.

Results

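The genes described here are Flt1, which encodes VEGF receptor 1, and 9 genes for secreted growth factors and vasoactive peptides: Vegfa, Vegfb, Hbegf, Edn1, Igf1, Pdgfa, Pdgfb, Pdgfc and Tgfb1. They were taken by name, as every array probe that the scanner files assign to 1 of these 10 genes. This gave 23 of 41174 probes, of which 21 were kept after a filter on dim probes, and all 10 genes were among the 18434 tested. The samples were macrophages grown from the bone marrow of C57BL6/J mice (called C57BL6) and Balb/cAnNCrl mice (called Balb/c), both inbred strains for which the labels name no genetic change. The animals were 8 to 12 weeks old, and marrow of 2 males and 1 female was pooled for each sample. All groups were grown in CSF1 (200 ng/ml), the growth factor that macrophages need, replated on day 6 and treated from day 7. In each strain, cells were left without IL-4 for 18 h (mock) or given IL-4 (10 ng/ml) for 4 h or 18 h, with 2 arrays in each of the 6 groups and 12 in all. The cells treated for 4 h therefore had no mock of their own duration. The shared treatment protocol also mentions a bacterial stimulus, but the labels of these 12 samples give IL-4 alone.

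IL-4 is a cytokine of type 2 immunity that acts on macrophages through the transcription factor STAT6 and turns on a program linked to wound repair. Flt1 binds VEGF-A, VEGF-B and placental growth factor, either as a membrane kinase or, when the transcript ends early, as a soluble form that captures these ligands. VEGF-A is the main driver of blood vessel growth. HB-EGF signals through the EGF receptor, endothelin-1 constricts vessels, IGF-1 and the PDGF chains act on stromal and muscle cells, and TGF-beta 1 restrains inflammation and drives matrix deposition.

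Levels are given as log2 of the processed signal over the 75th percentile of the same array, so that 0 is the level of a bright probe and each unit is a doubling. A probe's level depends on its own sequence, so levels were compared between samples and not between genes. On each array, 54.9% to 69.7% of 43379 spots were well above background, and replicates correlated at 0.974 to 0.989. The number of arrays limits the precision, and since marrow was pooled, the spread behind each p-value is that between pools and not between mice. The series text describes separate experiments with different littermates, so the replicate number pairs samples. The main fit leaves that number out. The result with that number as a block is given where it changes a call of a member or of another named gene against mock, and the other lists are given by their counts. All 11 macrophage markers were well above background on every array, and their summed linear level ran from 663.8 to 881.3 times the 75th percentile. Of the 12 endothelial markers, Emcn was above background on no array. The summed endothelial level was 12.7 to 18.9 in mock and 4 h samples and 19.4 to 34.9 at 18 h. Vwf gave most of this sum (9.99 to 16.9, then 17.4 to 33.3), while the rest together was lower at 18 h than in mock. In C57BL6 this rest was 2.22 to 3.91 in mock, 1.46 to 1.90 at 4 h and 1.22 to 1.72 at 18 h. In Balb/c it was 2.58 to 4.19, then 1.59 to 2.68, then 1.58 to 1.97. The arrays lay on 3 slides, and 2 of these held arrays of a single strain. In mock, the summed level of neutrophil markers was 12.9 to 16.4 in C57BL6 and 3.65 to 4.43 in Balb/c. The sums of B cell, mast cell and eosinophil markers were also lower in Balb/c mock. That of dendritic cell markers was higher there (0.382 to 0.715, against 0.230 to 0.298 in C57BL6). The part of other cell types and of the slide in the results was not tested, beyond the values given. In such bulk samples, fewer cells of a type and less RNA per cell cannot be told apart.

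IL-4 raised 3 of the 10 genes in both strains. Flt1 and Hbegf rose at both times in both strains, and Edn1 rose at both times in C57BL6 and at 4 h in Balb/c. Pdgfb fell in C57BL6 at 4 h. These calls come from the main fit, without the replicate number. With the replicate number as a block, Flt1, Hbegf, Edn1 and Pdgfa were called higher and Pdgfb lower in all 4 comparisons with mock. The other members were called in only some of them. The counts below come from limma with Benjamini-Hochberg adjustment over all genes, where a gene was called at an adjusted p below 0.05. The members were chosen with earlier results of these data known. Their counts and medians beside those of all genes are thus a description and no test of the set. In C57BL6 at 4 h, 3 members were called higher, against a background of 1.59% of all genes called higher, and 1 was called lower, against 1.77%. At 18 h in C57BL6, 3 were higher (background 1.69%) and 0 lower (background 2.77%). In Balb/c, 3 were higher at 4 h (background 0.949%) and 2 at 18 h (background 1.39%), and 0 were lower at either time (backgrounds 0.472% and 2.44%).

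At an unadjusted p below 0.05, 7, 7, 5 and 5 members differed from mock in C57BL6 at 4 h, C57BL6 at 18 h, Balb/c at 4 h and Balb/c at 18 h, where 16.1%, 17.8%, 10.1% and 15.1% of all genes did. The IL-4 and mock arrays did not overlap for 10, 9, 6 and 8 members in the same order. With 2 arrays a group this is common, and it held for 49.5%, 51.7%, 31.3% and 42.5% of all genes. Between 4 h and 18 h, 49.6% of all genes did not overlap in C57BL6 and 35.3% in Balb/c. The median log2 change over the 10 members was 0.97, 0.91, 0.89 and 0.45 in the same order, against -0.04, -0.05, 0.02 and 0.02 over all genes. With the replicate number as a block, 9, 8, 5 and 6 members were called. The block also raised the share of all genes called, to 16.7%, 17.6%, 7.1% and 14.8%.

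**Figure D1:**
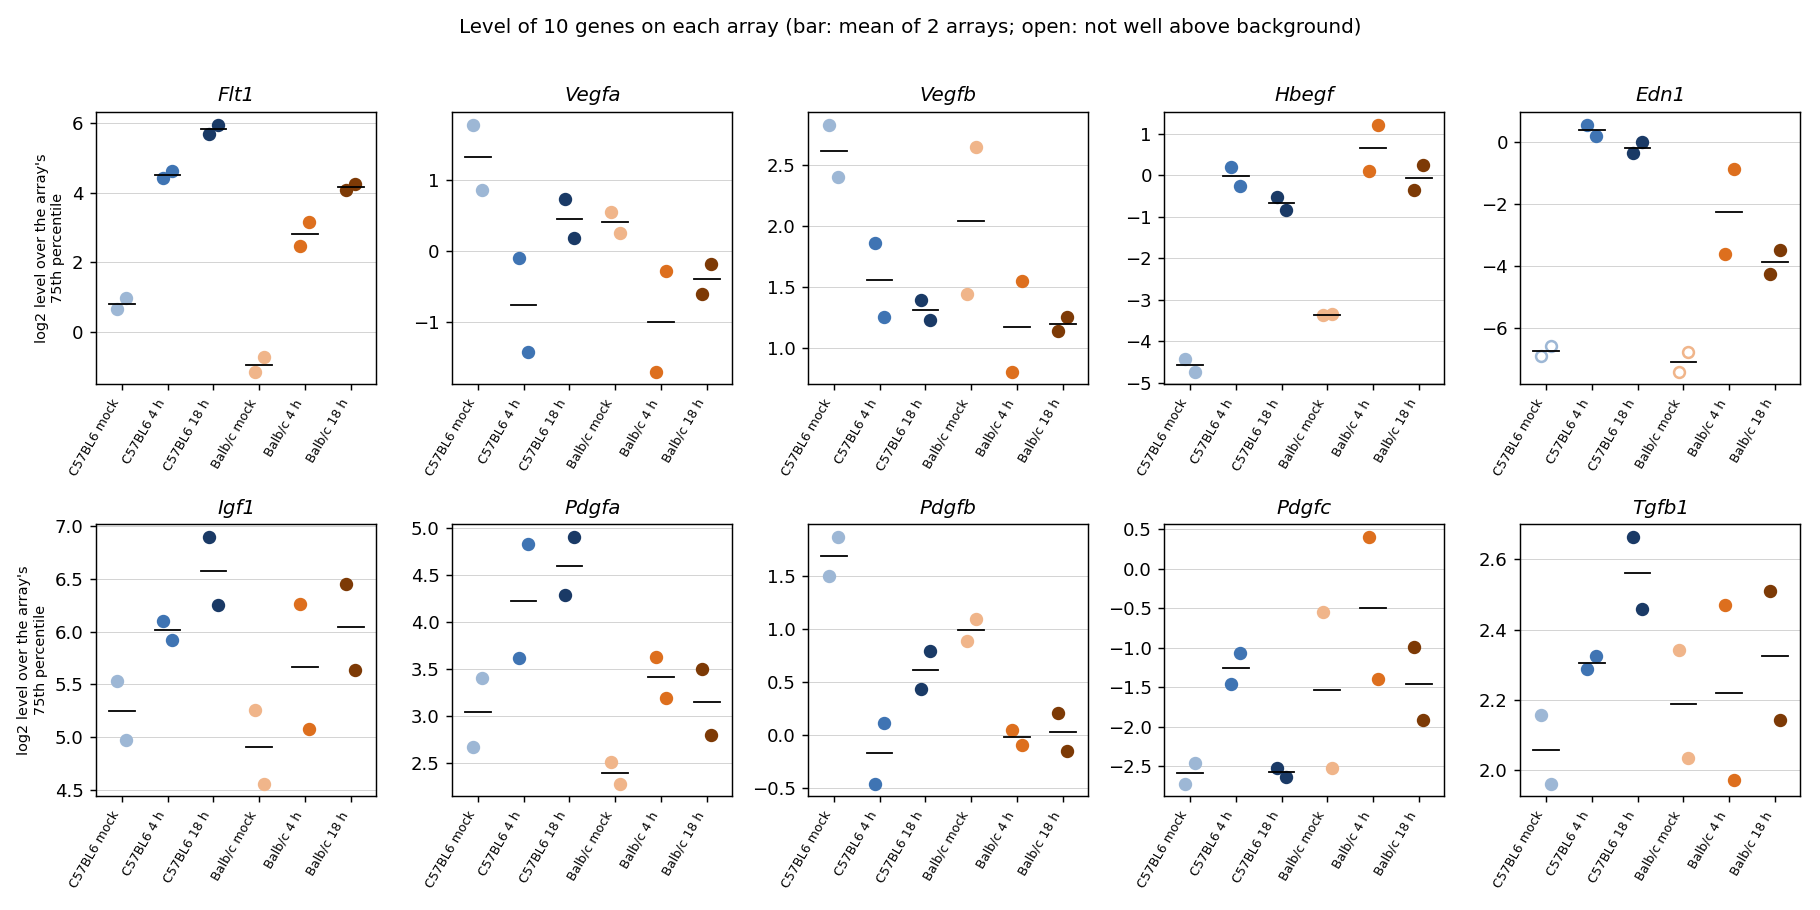
Level of the 10 genes on each of the 12 arrays, as log2 over the array's 75th percentile, by strain and treatment; each point is 1 array, the bar is the mean of 2, and open points are not well above background. Flt1, Hbegf and Edn1 sit above mock on every IL-4 array of their strain, and the mock points of Edn1 are open.

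Flt1, the receptor, was already expressed in untreated cells and was higher on every IL-4 array than on any mock array. In C57BL6 its level was 0.67 and 0.97 in mock, 4.40 and 4.60 after 4 h, and 5.67 and 5.95 after 18 h. In Balb/c it was -1.14 and -0.72 in mock, 2.46 and 3.14 after 4 h, and 4.07 and 4.25 after 18 h. Within each strain the 3 groups did not overlap, and the 18 h arrays were the highest. The rise over mock was 3.68 ± 0.26 log2 (SE; 12.8-fold, adjusted p = 9.82e-04) at 4 h and 4.99 ± 0.26 (31.7-fold, adjusted p = 1.84e-04) at 18 h in C57BL6. In Balb/c the rise was 3.73 ± 0.26 (13.3-fold, adjusted p = 0.00152) and 5.09 ± 0.26 (34.0-fold, adjusted p = 1.69e-04). These 4 calls held when any single array was left out, with changes between 3.39 and 5.30. On only the 4 arrays compared, the call at 4 h in Balb/c was lost (adjusted p = 0.345).

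The order of the group means of Flt1, from low to high, was Balb/c mock (-0.93), C57BL6 mock (0.82), Balb/c 4 h (2.80), Balb/c 18 h (4.16), C57BL6 4 h (4.50) and C57BL6 18 h (5.81). The neighbours Balb/c 18 h and C57BL6 4 h lay closest, and their difference was not tested. Between 4 h and 18 h the level of Flt1 differed by 1.30 ± 0.26 log2 in C57BL6 (adjusted p = 0.0783) and by 1.36 ± 0.26 in Balb/c (adjusted p = 0.074), so neither passed. With the replicate block both passed (adjusted p = 0.00897 and 0.00875). Arrays on the same slide gave similar rises over mock: 3.73 and 3.63 at 4 h and 4.84 at 18 h in C57BL6, and 3.39 and 5.00 in Balb/c.

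The sequence just upstream of the annotated Flt1 start is shown because the gene moved furthest above its own spread. It is the RefSeq window of 250 bases before the start, at chr5:147726012-147726261 on the minus strand of GRCm38.p6. Capitals mark the matches to the letters searched for on both strands: TGACGTCA, the cAMP response element, begins 81 bases before the start, and TATAAA, the TATA box, begins 31 bases before it.
Flt1: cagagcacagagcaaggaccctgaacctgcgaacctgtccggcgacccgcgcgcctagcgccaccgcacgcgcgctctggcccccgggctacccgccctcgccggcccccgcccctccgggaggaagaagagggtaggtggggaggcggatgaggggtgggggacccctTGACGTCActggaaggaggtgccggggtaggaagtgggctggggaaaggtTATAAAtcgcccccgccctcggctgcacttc
Among 32851 RefSeq windows of this length, 1.55% held TGACGTCA and 12.4% held TATAAA. The other letters searched for were TTCNNNNGAA (the spacing STAT6 prefers, in 5.85% of windows), TTCNNNGAA (other STAT proteins, 7.02%), TGANTCA (AP-1, 6.75%) and ACGTG (the hypoxia response core, 16.6%), and none was in this window. No searched motif overlapped another in it. A match of letters is a description and no evidence of binding.

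Flt1 is a long gene with 5 probes on the array, and they did not keep the same proportions. A second probe, 73 bases upstream of the most 3′ probe, followed it closely. In C57BL6 its level was -2.10 and -1.85 in mock, 1.70 and 1.84 at 4 h, and 3.00 and 3.26 at 18 h. The Balb/c values were -4.08 and -3.49, then -0.29 and 0.37, then 1.29 and 1.47. Both 3′-end probes were thus highest at 18 h in each strain.

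The probe 75990 bases upstream, on the same strand, had another time course. In C57BL6 its level was -4.02 and -3.67 in mock, 1.86 and 2.21 at 4 h, and 1.31 and 1.90 at 18 h. The Balb/c arrays gave -4.82 and -5.06 in mock, 0.24 and 0.90 at 4 h, and -0.56 and -0.50 at 18 h. It rose over mock in both strains at both times when every kept probe was tested (5.88, 5.45, 5.51 and 4.41 log2, SE 0.29, adjusted p at most 6.24e-04). Its level at 18 h was not above that at 4 h (-0.43 in C57BL6 and -1.10 in Balb/c, adjusted p = 0.709 and 0.179).

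The mean of both 3′-end probes minus the upstream probe was computed on each array. In mock it was 3.31 and 3.23 in C57BL6 and 2.22 and 2.96 in Balb/c. At 4 h it was 1.19 and 1.01 in C57BL6 and 0.85 and 0.86 in Balb/c. At 18 h it was 3.03 and 2.71 in C57BL6 and 3.24 and 3.36 in Balb/c. The 4 arrays at 4 h were the lowest of the 12, with no overlap. The upstream probe was well above background on all 12 arrays. In Balb/c mock, at -4.82 and -5.06, it lay near the lowest level called so on those arrays (-5.52 and -5.57). The comparison of this difference with mock was not recomputed with the other background correction.

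Over both strains, the difference between the probes was 2.11 log2 larger at 18 h than at 4 h (exact permutation test, two-sided, 4 against 4 arrays, p = 0.0286, adjusted over 3 comparisons 0.0429). At 4 h it was 1.95 log2 below mock (exact permutation p = 0.0286, adjusted 0.0429), and 0.0286 is the smallest p that 4 against 4 freely exchanged arrays allow. Both p below 0.05 depend on that free exchange. With arrays exchanged only within a strain, both comparisons gave an exact permutation p of 0.0556, and with exchange only within pairs of the same strain and replicate number 0.125, in each case the smallest p possible. Between 18 h and mock it differed by 0.16 (exact permutation p = 0.6, 0.667 and 0.75 in the 3 schemes). The pattern was noticed after the values were seen, so no p here stands independent of it. The scanner annotation assigns the 3′-end probes to a RefSeq mRNA record of Flt1 and the upstream probe to other cDNA records, and whether either reads the soluble form was not checked here. Of the remaining probes, that 92185 bases upstream was well above background on 4 arrays and that 83341 bases upstream on 1.

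**Figure D2:**
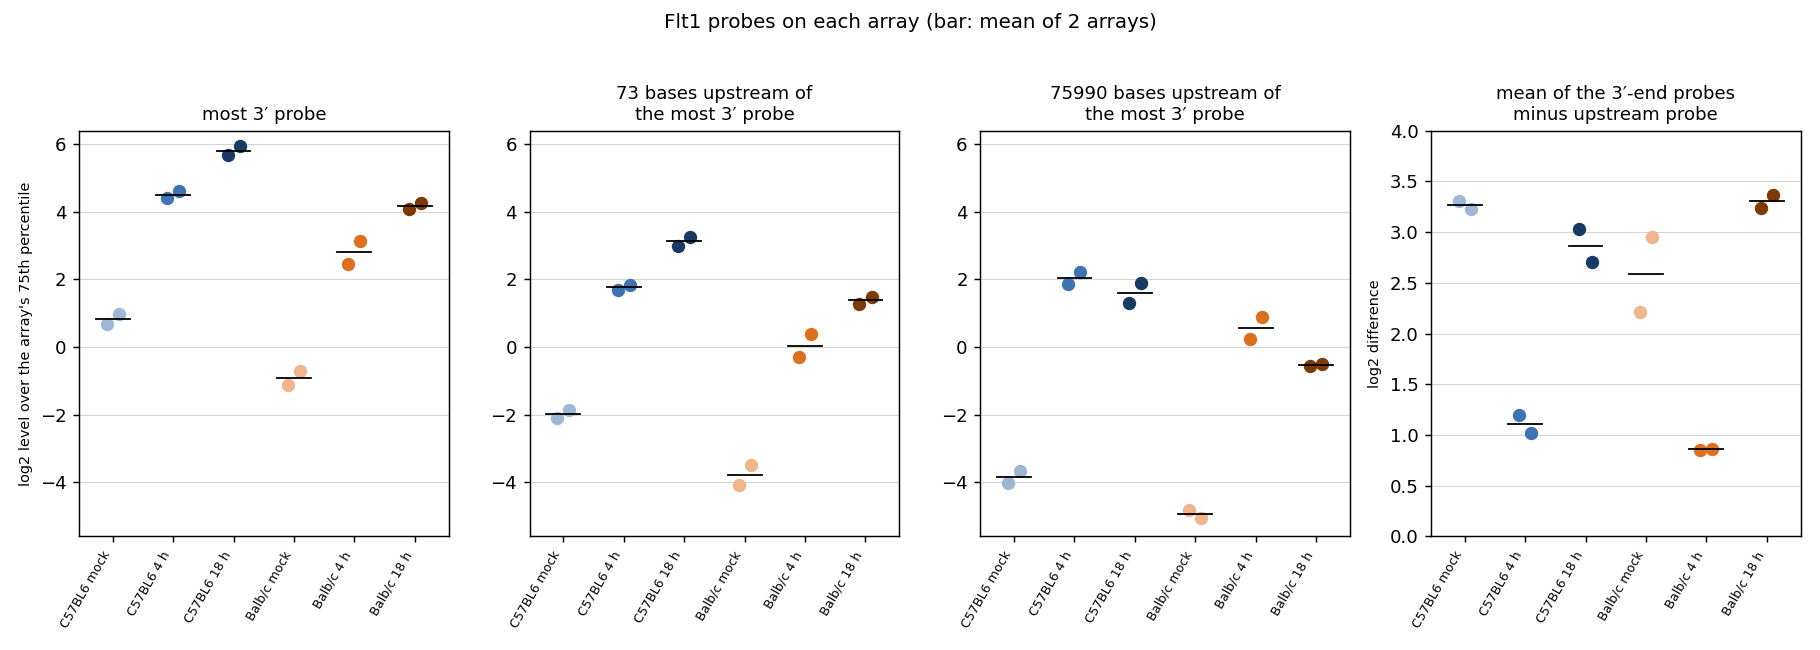
Levels of 3 Flt1 probes on each array (log2 over the array's 75th percentile) and, at the right, the mean of the 3′-end probes minus the upstream probe; each point is 1 array and the bar the mean of 2. The difference lies between 0.85 and 1.19 on the 4 h arrays and between 2.22 and 3.36 on the others.

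Hbegf, the gene of an EGF receptor ligand, was dim but measurable in mock cells. In C57BL6 its level was -4.41 and -4.74 in mock, 0.20 and -0.26 at 4 h, and -0.53 and -0.83 at 18 h. Its Balb/c level was -3.37 and -3.34 in mock, 0.11 and 1.22 at 4 h, and -0.36 and 0.25 at 18 h. The IL-4 arrays were all above the mock arrays. The rise was 4.55 ± 0.37 log2 (23.3-fold, adjusted p = 0.00139) at 4 h and 3.90 ± 0.37 (14.9-fold, adjusted p = 0.00186) at 18 h in C57BL6. In Balb/c it was 4.02 ± 0.37 (16.2-fold, adjusted p = 0.00442) and 3.30 ± 0.37 (9.81-fold, adjusted p = 0.00327).

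The level of Hbegf was 0.65 log2 below the 4 h level at 18 h in C57BL6 and 0.72 below it in Balb/c, and neither difference passed (adjusted p = 0.619 and 0.564). On only the arrays compared, the Balb/c calls were lost (adjusted p = 0.381 and 0.0864). All 4 calls held when any single array was left out, with changes from 2.99 to 4.77. Under the other settings the rise was as small as 3.52 at 4 h and 2.81 at 18 h in C57BL6. In Balb/c it was as small as 3.42 and 2.71, so the fold of Hbegf depends on the processing.

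Edn1, the gene of the endothelin-1 precursor, went from no signal above background in mock to a signal above it on all IL-4 arrays, dim on most of those of Balb/c. Its level in C57BL6 was -6.89 and -6.58 in mock, neither well above background, 0.56 and 0.19 at 4 h, and -0.37 and -0.0029 at 18 h. On the Balb/c arrays it was -7.40 and -6.76 in mock, again not above background, -3.62 and -0.87 at 4 h, and -4.25 and -3.47 at 18 h. The IL-4 arrays lay above the mock arrays in both strains, and the Balb/c arrays at 4 h lay far apart from each other.

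Because mock cells were not above background, the rise of Edn1 is given as an approximate lower limit for the processed signal. It was taken from the lowest level the scanner software called above background on each array. This is no strict bound, since a probe not called can lie above that level. Ereg did so on Balb/c mock replicate 1, at -5.22 against -5.52. By this limit, Edn1 in C57BL6 rose at least 89.9-fold at 4 h (adjusted p = 0.00419) and at least 60.9-fold at 18 h (adjusted p = 0.00359). In Balb/c it rose at least 9.84-fold at 4 h (adjusted p = 0.0252). At 18 h in Balb/c the level was at least 3.21-fold above mock but missed the threshold (adjusted p = 0.0628), and it passed with the replicate block (adjusted p = 0.0165).

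The Balb/c call for Edn1 at 4 h was the least stable of those for the 3 risen genes. It was lost without either Balb/c mock array and without any of the 6 C57BL6 arrays, with adjusted p between 0.0521 and 0.157. Without either of the Balb/c 4 h arrays it kept its call, but the lower limit moved from 9.84-fold to 25.5-fold without replicate 1 and to 3.80-fold without replicate 2. It was also lost with another background correction (fitted change 2.08 log2, adjusted p = 0.0938) and without the filter on dim probes (adjusted p = 0.05004). The same held with array weights (adjusted p = 0.0546) and on only the arrays compared (adjusted p = 0.519). The C57BL6 calls held in every one of these settings. Their fitted changes, which against such dim mock arrays are no measured size, were 4.41 and 3.82 log2 under the other background correction. With the processed signal on all arrays they were 7.11 and 6.55. The changes under the other correction, also that in Balb/c at 4 h, thus lay below the limits given above.

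The RefSeq window before the Edn1 start is shown beside that of Flt1, since both genes rose in C57BL6 at both times. It lies at chr13:42301226-42301475 on the plus strand of GRCm38.p6. Capitals mark the outer letters of the only match to the searched motifs, TTCNNNNGAA, which begins 185 bases before the start.
Edn1: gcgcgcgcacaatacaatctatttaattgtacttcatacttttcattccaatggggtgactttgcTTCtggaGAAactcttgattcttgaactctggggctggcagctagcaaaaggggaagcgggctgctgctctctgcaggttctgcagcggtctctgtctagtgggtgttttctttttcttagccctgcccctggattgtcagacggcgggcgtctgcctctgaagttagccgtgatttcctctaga
Windows were matched for 8 of the 10 members, 10 windows in all, and Hbegf and Pdgfb were not matched. Apart from Flt1 and Edn1, matches were a TGANTCA match 37 bases before the Igf1 start and an ACGTG match 211 bases before 1 of the 2 Vegfa starts. That Vegfa window (chr17:46025164-46025413, minus strand) lies downstream of the other Vegfa start, so it is sequence inside the gene. The window before the other, more upstream start (chr17:46032378-46032627) held no match. The windows of Pdgfa, Pdgfc, Tgfb1 and Vegfb held none of the searched letters.

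Pdgfb, which encodes the PDGF B chain, moved the other way. In C57BL6 its level was 1.50 and 1.87 in mock, -0.46 and 0.12 at 4 h, and 0.43 and 0.79 at 18 h. The Balb/c levels were 0.89 and 1.09 in mock, 0.05 and -0.09 at 4 h, and 0.21 and -0.16 at 18 h. All 8 IL-4 arrays were below the mock arrays of their strain. Pf4, which leads the megakaryocyte markers and like Pdgfb is a platelet product, went from a linear level of 57.2 to 69.0 in C57BL6 mock to 39.6 to 52.1 at 4 h and 24.5 to 36.7 at 18 h, and in Balb/c from 57.1 to 61.1 to 43.4 to 51.4 and 50.9 to 61.6. The other megakaryocyte markers summed to at most 0.296 on any array. The part of such cells in the change of Pdgfb was not tested.

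At 4 h in C57BL6, Pdgfb fell by 1.86 ± 0.25 on the log2 scale (3.63-fold lower, adjusted p = 0.00893). The changes at 18 h in C57BL6 and at 4 h and 18 h in Balb/c were -1.07, -1.01 and -0.96 (adjusted p = 0.0588, 0.129 and 0.0969), and all 3 passed with the replicate block (adjusted p = 0.00969, 0.024 and 0.015). Its other probe, 811 bases upstream, gave -1.34 in C57BL6 at 4 h (adjusted p = 0.00669). In Balb/c that probe also passed at 4 h (-0.91, adjusted p = 0.04994) and at 18 h (-0.96, adjusted p = 0.0209), and in C57BL6 at 18 h it gave -0.65 (adjusted p = 0.082). The C57BL6 call was lost without C57BL6 4 h replicate 1 (-1.57, adjusted p = 0.0677), without C57BL6 mock replicate 2 (-1.67, adjusted p = 0.0689) and on only the arrays compared (adjusted p = 0.0992).

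Vegfa and Vegfb, the VEGF ligands among the members, were not called in the main fit. Vegfa was at 1.78 and 0.86 in C57BL6 mock, -0.10 and -1.41 at 4 h, and 0.73 and 0.18 at 18 h. In Balb/c its level was 0.55 and 0.26 in mock, -1.70 and -0.28 at 4 h, and -0.60 and -0.18 at 18 h. Mock and 4 h arrays did not overlap in either strain, but the arrays at 4 h lay more than 1 log2 unit apart within each strain.

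The change of Vegfa at 4 h was -2.08 ± 0.58 in C57BL6 (adjusted p = 0.113, with the replicate block 0.0249) and -1.39 ± 0.58 in Balb/c (adjusted p = 0.465). At 18 h it was -0.87 and -0.80. Its other probes gave -1.64 and -1.49 in C57BL6 at 4 h and -1.09 and -1.07 in Balb/c.

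For Vegfb, which encodes a ligand of Flt1 that does not bind the second VEGF receptor, the probes disagreed. The brighter probe was at 2.83 and 2.40 in C57BL6 mock and between 1.23 and 1.86 after IL-4, a change of -1.05 ± 0.42 at 4 h (adjusted p = 0.264) and -1.30 ± 0.42 at 18 h (adjusted p = 0.145). With the replicate block both passed (adjusted p = 0.0465 and 0.0255). In Balb/c it was at 1.45 and 2.64 in mock and between 0.81 and 1.55 after IL-4, with changes of -0.87 and -0.84 that did not pass. The other probe, 285 bases upstream, changed by -0.09 to 0.11 in the 4 comparisons, so the direction of Vegfb rests on 1 probe.

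In the main fit, Igf1, Pdgfa, Pdgfc and Tgfb1 did not pass the threshold in any of the 4 comparisons with mock on the probe that stood for the gene. Igf1, the gene of insulin-like growth factor 1, was at 5.53 and 4.97 in C57BL6 mock, 6.10 and 5.92 at 4 h, and 6.90 and 6.25 at 18 h. Its level in Balb/c was 5.25 and 4.56, then 6.26 and 5.07, then 6.45 and 5.64, and the 4 h arrays overlapped with mock. The changes were 0.76, 1.33, 0.76 and 1.14 log2 (SE 0.47), in the order C57BL6 4 h, C57BL6 18 h, Balb/c 4 h and Balb/c 18 h, with adjusted p from 0.186 to 0.73. With the replicate block, all but Balb/c at 4 h passed (adjusted p = 0.0352, 0.00684 and 0.0118). A probe 17098 bases downstream gave 0.50, 0.93, 0.77 and 1.09. The dimmer probe, farthest upstream, gave 1.35 at 4 h and 1.17 at 18 h in C57BL6 and 1.62 at 4 h in Balb/c (SE 0.35), with its larger value at 4 h in both strains, and did not pass either (adjusted p from 0.0858 to 0.171).

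Pdgfa, the PDGF A chain, had levels of 2.67 and 3.40 in C57BL6 mock, 3.61 and 4.83 at 4 h, and 4.28 and 4.90 at 18 h. In Balb/c they were 2.50 and 2.27, then 3.63 and 3.19, then 3.50 and 2.80. No IL-4 array overlapped with the mock arrays of its strain. The changes of Pdgfa were 1.18, 1.56, 1.02 and 0.76 log2 (SE 0.46, adjusted p from 0.114 to 0.524) in the order above, and all 4 passed with the replicate block (adjusted p = 0.0146, 0.00568, 0.0358 and 0.0478). The other Pdgfa probe, 2103 bases upstream and dimmer, gave 1.38, 1.74, 1.19 and 0.81, and passed at 18 h in C57BL6 when every kept probe was tested (adjusted p = 0.0428).

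Pdgfc, which encodes a chain that is activated by cleavage, was at -2.72 and -2.45 in C57BL6 mock, -1.46 and -1.06 at 4 h, and -2.51 and -2.64 at 18 h. Its Balb/c arrays were at -0.54 and -2.53, then 0.41 and -1.39, then -0.99 and -1.92, so the spread within Balb/c was as large as any difference there. The change at 4 h was 1.33 ± 0.73 in C57BL6 (adjusted p = 0.447, with the replicate block 0.0301) and 1.04 ± 0.73 in Balb/c (adjusted p = 0.783). At 18 h it was 0.01 and 0.08.

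Tgfb1 had the smallest spread of the members, with all 12 arrays between 1.96 and 2.66. Its changes were 0.25, 0.50, 0.03 and 0.14 log2 (SE 0.22), and the 95% interval of the C57BL6 change at 18 h ran from -0.01 to 1.02 (adjusted p = 0.293, with the replicate block 0.0303). In Balb/c the interval at 18 h ran from -0.38 to 0.65.

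**Figure D3:**
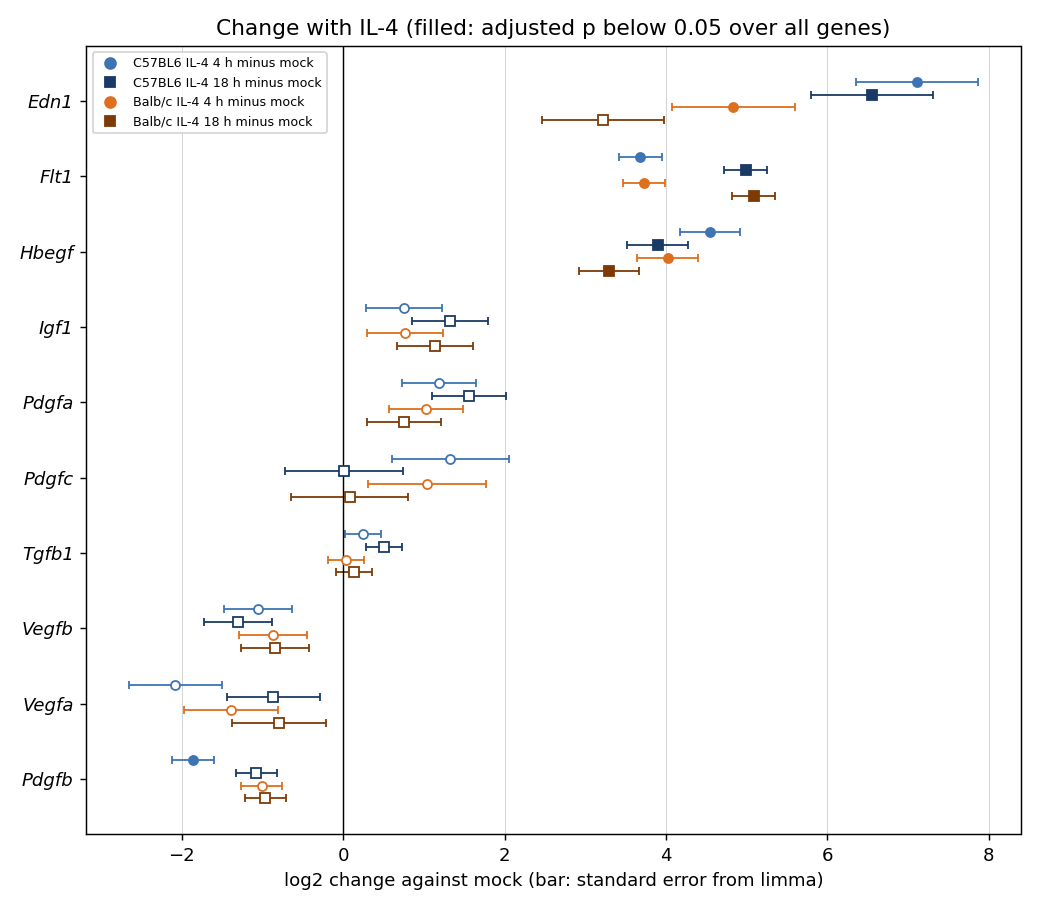
Log2 change of the 10 genes against mock in each strain at 4 h and 18 h, with the standard error from limma (2 arrays a group); filled symbols have an adjusted p below 0.05 over all genes. Flt1 and Hbegf lie between 3.30 and 5.09, and the genes other than Flt1, Hbegf and Edn1 between -2.08 and 1.56. The points of Edn1 are fitted changes against mock arrays that were not above background, so they are no measured sizes. The approximate lower limits from the processed signal were 3.21-fold to 89.9-fold.

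The next question was whether the genes changed further between 4 h and 18 h of IL-4. With limma, 0 of 10 members were called in C57BL6 (background 0.971% of all genes) and 0 in Balb/c (background 0.884%). At an unadjusted p below 0.05 there were 2 in C57BL6 (Flt1 and Pdgfb) and 1 in Balb/c (Flt1), where 11% and 10.7% of all genes were, so these counts lie near the background. With the replicate block 2 and 1 were called, again Flt1 in both strains and Pdgfb in C57BL6 (0.79 log2 higher at 18 h, adjusted p = 0.27 without and 0.0422 with the block). The block called 6.82% and 5.57% of all genes.

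The strains were compared in mock cells. Flt1 was 1.75 ± 0.26 log2 lower in Balb/c than in C57BL6 (3.36-fold lower, adjusted p = 0.00781), and was the only member called: 1 was lower (background 2.93%) and 0 higher (background 2.45%). The median over all genes in this comparison was -0.12 log2, and the part of such a shift in the difference of Flt1 was not tested. When every kept probe was tested, the second 3′-end probe gave -1.81 (adjusted p = 0.00717) and the upstream probe -1.10, which did not pass (adjusted p = 0.0692). The call of Flt1 was lost without Balb/c mock replicate 1 (-1.54, adjusted p = 0.0631), without C57BL6 mock replicate 2 (-1.60, adjusted p = 0.0575), with the slide as a block (-1.20, adjusted p = 0.121) and on only the arrays compared (adjusted p = 0.0804). No slide held mock arrays of both strains, so a within-slide value could not be had.

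With the replicate block, 3 more members were called between the strains in mock. Hbegf was 1.22 log2 higher in Balb/c (adjusted p = 0.117 without and 0.0228 with the block) and Pdgfc 1.05 higher (0.452 and 0.0472). Pdgfb had a difference of -0.70 (adjusted p = 0.179 and 0.0299), but its other probe gave 0.01 (adjusted p = 0.976), so this difference rests on 1 probe. The block called 21.2% of all genes here.

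Whether IL-4 acted differently in the strains was tested as the difference between the strains' changes. With limma, 0 of 10 members and 0 of 18432 genes passed at 4 h (background 0%), and 0 of 10 and 0 of 18432 at 18 h (background 0%). At an unadjusted p below 0.05 there were 456 and 989 genes (2.47% and 5.37%), 1 of them a member at each time. The replicate block, the other background correction and median scaling gave 0, 0 and 0 genes at 4 h and 0, 0 and 2 at 18 h, quantile scaling gave 2 and 9, the deposited ratios 1 and 1, and the slide block 0 and 3.

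For Flt1 the change in Balb/c minus that in C57BL6 was 0.05 log2 at 4 h (95% interval -0.81 to 0.91) and 0.10 at 18 h (-0.76 to 0.96). Its upstream probe gave -0.37 at 4 h (unadjusted p = 0.388) and -1.04 at 18 h (unadjusted p = 0.0332, adjusted p = 0.913). For Hbegf it was -0.53 (-1.74 to 0.69) and -0.60 (-1.82 to 0.62). Pdgfb was the member with an unadjusted p below 0.05 at 4 h (0.85, interval 0.02 to 1.68, unadjusted p = 0.0457, adjusted 1), with the larger drop in C57BL6. Its other probe gave 0.43 (unadjusted p = 0.114).

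Edn1 was the member with an unadjusted p below 0.05 at 18 h (unadjusted p = 0.0143, adjusted p = 0.863). The mock arrays were not above background in either strain, so the size of this difference was not measured. The levels of Edn1 at 18 h themselves were -0.37 and -0.0029 in C57BL6 against -4.25 and -3.47 in Balb/c.

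Other genes of the same pathways came from lists of ligands, receptors and processing enzymes, also chosen with earlier results of these data known. Over all genes, in the order C57BL6 4 h, C57BL6 18 h, Balb/c 4 h and Balb/c 18 h, 1.59%, 1.69%, 0.949% and 1.39% were called higher and 1.77%, 2.77%, 0.472% and 2.44% lower. The replicate block raised these to 6.78%, 6.56%, 3.35% and 6.42% higher and 9.91%, 11%, 3.75% and 8.34% lower. Of 9 VEGF genes tested, Flt1 alone was called in each of the 4 comparisons with mock. Pgf, the gene of placental growth factor and thus of another Flt1 ligand, was at -2.75 and -2.83 in C57BL6 mock, -1.63 and -0.05 at 4 h, and -2.43 and -2.06 at 18 h. Its Balb/c levels were -2.94 and -3.80, then 0.06 and -2.33, then -1.48 and -2.16. All 8 IL-4 arrays lay above mock, but its changes of 1.95, 0.55, 2.23 and 1.55 log2 (SE 0.78) did not pass (adjusted p from 0.268 to 0.794). Kdr, the second VEGF receptor and a marker of endothelial cells, was at 0.14 and 1.33 in C57BL6 mock and 0.61 and 1.53 in Balb/c mock. After IL-4 its level was -1.82 and -0.87 at 4 h and -1.87 and -0.75 at 18 h in C57BL6, and -1.52 and 0.17, then -1.54 and -0.48, in Balb/c. Its changes of -2.08, -2.04, -1.74 and -2.08 log2 (SE 0.73) did not pass (adjusted p from 0.19 to 0.473) but all passed with the replicate block (adjusted p from 0.0031 to 0.0125).

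Vegfc, a ligand known for lymphatic vessels, had changes of 2.36 at 4 h in C57BL6 (adjusted p = 0.0551, with the block 0.00657) and 2.18 in Balb/c (adjusted p = 0.115, with the block 0.0141). The co-receptors Nrp1 and Nrp2 had changes between -0.47 and 0.41, none called, and Nrp2 at 18 h in C57BL6 passed with the block (adjusted p = 0.0438). With the block, 2, 1, 2 and 1 genes of the list were called higher and 3, 3, 1 and 1 lower. The median change over the VEGF list was -0.45, -0.47, -0.44 and -0.18.

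Of 11 EGF family genes, 1, 2, 2 and 2 were called higher and 0 lower. The second gene beside Hbegf was Tgfa, which encodes another EGF receptor ligand. In C57BL6 it was above background on 1 of the 2 mock arrays and on all IL-4 arrays. It rose there at 18 h (fitted change 1.50 ± 0.24 log2, adjusted p = 0.0129), and at 4 h it passed with the replicate block alone (adjusted p = 0.0516 without and 0.0136 with it). In Balb/c, where no mock array was above background, Tgfa rose at least 2.53-fold at 18 h by the same approximate limit (adjusted p = 0.00249). At 4 h in Balb/c it was called (adjusted p = 0.0221), but 1 of the 2 arrays was above background, so no size is given. The receptors Egfr and Erbb4 were not called, with changes between -0.77 and 1.03. The block called 2, 2, 3 and 2 genes of this list higher and 0, 1, 0 and 0 lower. The median change over the EGF list was 0.21, 0.0024, 0.80 and 0.60.

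Among 20 TGF-beta genes, 1 was called higher and 1 lower at 4 h in each strain, and 0 were called higher at 18 h, with 5 lower in C57BL6 (2.77% over all genes) and 4 lower in Balb/c (2.44% over all genes). Smad3, an intracellular carrier of the TGF-beta signal, fell in all 4 comparisons, from -2.04 and -1.92 in C57BL6 mock to -4.16 and -3.91 at 18 h, and from -1.71 and -1.58 in Balb/c mock to -3.16 and -3.14. Its changes were -1.38, -2.06, -1.26 and -1.51 log2 (SE 0.18, adjusted p = 0.00772, 0.00124, 0.0194 and 0.00392). The 18 h arrays were below the mock arrays with no overlap. The replicate block called 1, 2, 1 and 1 genes of the list higher and 7, 6, 4 and 7 lower, against 9.91%, 11%, 3.75% and 8.34% of all genes lower. The list's median change was -0.13, -0.16, -0.13 and -0.36.

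Skil, a repressor of SMAD activity, fell at 18 h by 1.82 on the log2 scale in C57BL6 and by 1.41 in Balb/c (adjusted p = 0.00662 and 0.0195), and its change of -0.99 at 4 h in C57BL6 passed with the block (adjusted p = 0.082 without and 0.0237 with it). Its relative Ski rose at 4 h by 0.91 and 1.15 (adjusted p = 0.0261 and 0.0191), and its change of 0.67 at 18 h in Balb/c passed with the block (adjusted p = 0.073 and 0.0235). Ltbp2, a matrix protein related to those that bind latent TGF-beta, fell at 18 h by 1.69 and 1.31 (adjusted p = 0.0073 and 0.0211), and at 4 h in C57BL6 its change of -0.96 passed with the block (adjusted p = 0.0777 and 0.0162).

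Tgfb3, another TGF-beta ligand, fell by 2.18 at 18 h in C57BL6 (adjusted p = 0.0276), and its changes of -0.93 at 4 h in C57BL6 and -1.05 at 18 h in Balb/c passed with the block (adjusted p = 0.336 and 0.293 without, 0.0144 and 0.00954 with it). The receptor gene Tgfbr1 fell by 1.57 at 18 h in Balb/c (adjusted p = 0.0396), and its other changes, -1.26, -1.41 and -1.15, passed only with the replicate block (adjusted p = 0.0118, 0.0069 and 0.0255). Tgfbr2 fell by 0.98 at 18 h in C57BL6 (adjusted p = 0.0183), and its change of -0.63 in Balb/c passed with the block (adjusted p = 0.104 without and 0.0332 with it).

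Few genes of the remaining lists passed. Of 5 PDGF genes, Pdgfb at 4 h in C57BL6 was the one called. The PDGF receptor genes were not called with IL-4, while Pdgfrb was 3.52 log2 higher in Balb/c mock than in C57BL6 mock (adjusted p = 0.00267). Of 11 IGF genes 1 was called, Igfbp4, a binding protein of IGF-1, which fell by 1.42 at 18 h in C57BL6 (adjusted p = 0.015), and Igf1r was not. In Balb/c at 18 h the change of Igfbp4, -1.02, passed with the block (adjusted p = 0.0597 and 0.0317). Of 4 endothelin genes, Ece1, a protease that makes endothelin-1 from its precursor, fell by 0.98 at 18 h in C57BL6 (adjusted p = 0.0185), and its change of -0.60 at 4 h passed with the block (adjusted p = 0.118 and 0.021). The receptor Ednrb had changes between -0.04 and 1.62, none called, and the largest, at 18 h in C57BL6, passed with the replicate block (adjusted p = 0.214 without and 0.044 with it). The block called 2, 1, 1 and 1 PDGF genes higher and 1, 1, 1 and 1 lower, 1, 2, 0 and 1 IGF genes higher and 0, 2, 0 and 1 lower, and 1, 2, 1 and 1 endothelin genes higher and 1, 1, 0 and 0 lower.

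Among 11 genes of growth factor processing, Adam17, the protease that sheds HB-EGF and TGF-alpha, fell by 1.03 at 18 h in Balb/c (adjusted p = 0.0124). Its changes of -0.49 and -0.67 in C57BL6 passed with the replicate block (adjusted p = 0.179 and 0.0636 without, 0.0328 and 0.0134 with it). In this list the block called 0, 2, 0 and 0 genes higher and 1, 2, 0 and 3 lower. Of 16 genes of the hypoxia response, a pathway that controls Vegfa (its targets and the factors Hif1a and Epas1), limma called 0 in any of the 4 comparisons with mock. Their counts at an unadjusted p below 0.05 were 1, 3, 1 and 1, where 16.1%, 17.8%, 10.1% and 15.1% of all genes were. The replicate block called 1 lower at 4 h in C57BL6, 1 higher and 4 lower at 18 h in C57BL6, 0 at 4 h and 1 lower at 18 h in Balb/c. Flt4, Pdgfd, Areg, Btc, Edn2, Edn3, Ednra, Igf2 and Tgfb2 were not well above background on both arrays of any group and were not tested.

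**Figure D4:**
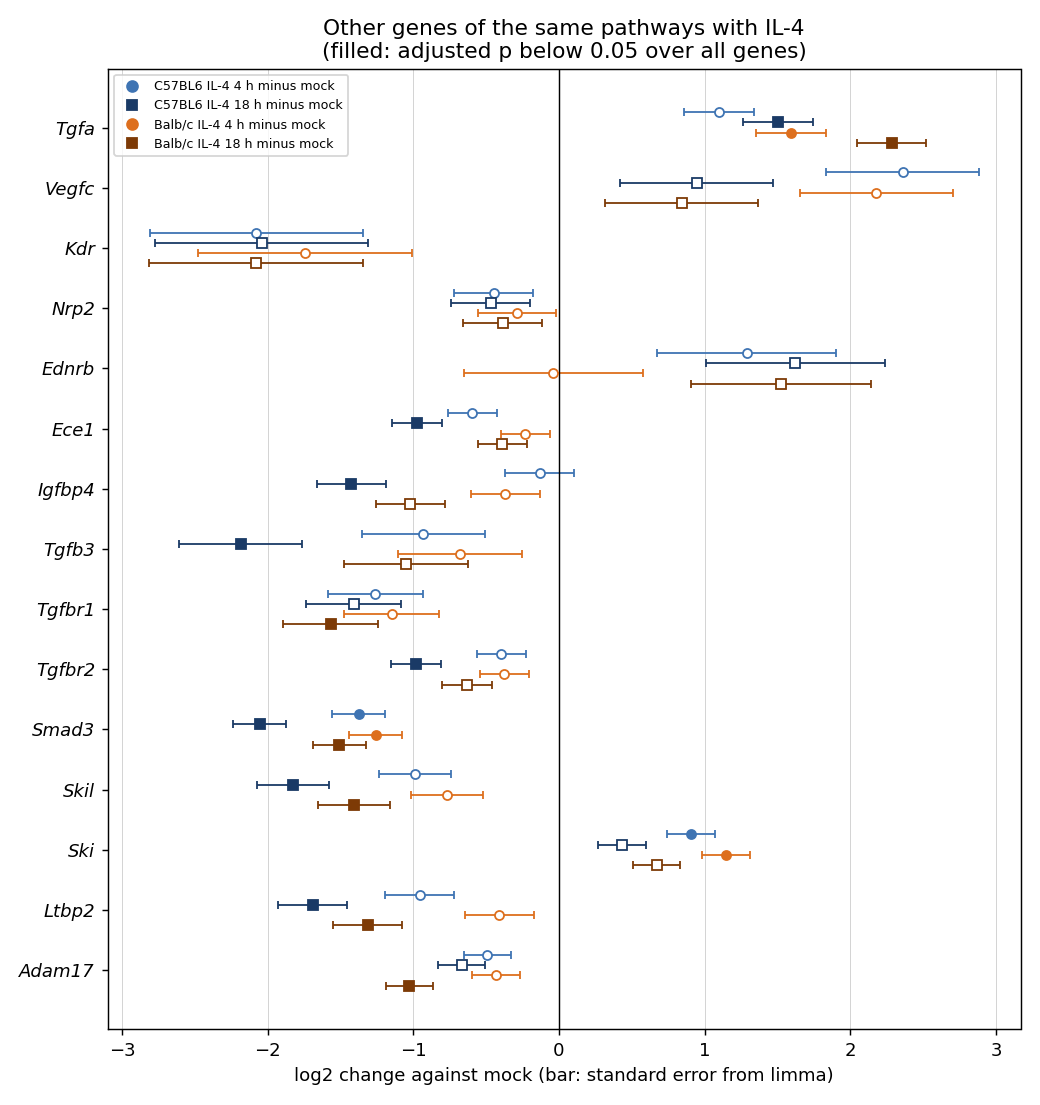
Log2 change against mock of 15 other genes of the same pathways, in each strain at 4 h and 18 h, with the standard error from limma; filled symbols have an adjusted p below 0.05 over all genes. Smad3 is filled and below 0 in all 4 comparisons (-2.06 to -1.26), and Tgfa is filled and above 0 in 3 of them, those in Balb/c against mock arrays that were not above background.

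The genes whose pattern was most like that of a risen or fallen member were ranked by the root mean square difference over the 12 arrays, each gene taken relative to its own mean, among 14027 named genes. For Flt1 they were Tarm1 (0.84 log2 units), Ccdc88c (0.84), Il31ra (0.90), Itgb8 (0.94), Tuba8 (1.02) and Il1r1 (1.03). Il1r1, an interleukin-1 receptor, went from -3.87 in C57BL6 mock to -0.73 at 18 h and from -4.68 to -1.12 in Balb/c. Those nearest to Hbegf were Ccdc141 (0.43), Ier3 (0.53) and Lancl3 (0.54). Ier3, an immediate early response gene, went from -1.35 to 2.77 at 4 h in C57BL6 and from -0.57 to 2.68 in Balb/c. Balb/c mock means were -7.42 for Tarm1, -5.77 for Il31ra, -7.26 for Itgb8, -6.97 for Tuba8, -6.69 for Ccdc141 and -6.41 for Lancl3. All lay below the lowest level called above background on those arrays (-5.52 and -5.57). The distances of these genes are thus no measured sizes.

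For Edn1 the nearest genes were Cdh1 (1.25), Flt1 (1.42) and Socs1 (1.44). These distances include the 4 mock arrays on which Edn1 was not above background, so they are no measured sizes. Socs1, a feedback inhibitor of cytokine signalling, went from 1.02 to 6.23 at 4 h in C57BL6 and from 1.02 to 5.62 in Balb/c. For Pdgfb they were Herc3 (0.24), Pik3cb (0.24) and Hs6st1 (0.26). These ranks describe 12 arrays that share the same treatments, and they carry no test.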

How the data were processed

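The deposited scanner output of 12 one-colour Agilent arrays was used; per the submitters' processing notes, Agilent Feature Extraction (9.5.1.1) had made it. The processed green signal is an intensity in linear scanner units, background-subtracted by the scanner software, per the file headers. The authors also deposited a linear ratio per probe with no stated denominator. It equalled the scaled signal divided by the C57BL6 mock mean (SD of the log2 difference at most 8.37e-04 over 21105 probes) and was used as an alternative.

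From the deposited intensities, log2 values minus each array's 75th percentile (1143 to 1585 units) were computed. Control spots and 103 to 134 flagged spots per array were left out, and spots of a probe were averaged. Of 41174 probes, 27386 were kept, flagged by the scanner as well above background on both replicates in 1 group or more. Gene names came from RefSeq (GRCm38.p6) by accession (17633 probes), symbol (3983) or older symbol (1873), and otherwise from the scanner file (3897). The kept probe with the highest mean stood for its gene. Group means of all 12 arrays went into limma (3.58.1; R 4.3.3) with empirical Bayes moderation (6 residual and 2.03 prior degrees of freedom). Comparisons were IL-4 against mock at each time, 18 h against 4 h, Balb/c against C57BL6 mock, and how the IL-4 change differed between strains. Errors beside log2 changes are standard errors. Comparisons with mock within a strain share their mock arrays. The code was tested on simulated data. Figures were drawn with matplotlib 3.10.9.

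The members and lists were chosen with earlier results of these data known. Named beside the members were list genes called with IL-4, up to 4 per list, receptors of members, and the genes nearest in pattern. Ski, Vegfc and Pgf were named after their values were seen. For replicate pairs, deviations from group means correlated at 0.155 to 0.652 in all 6 pairs of groups. Alternatives covered background, scaling, filters, probe choice, replicate and slide blocks, weights and leaving out each array.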

Additional observations from a re-analysis of the deposited data

Results flagged for a closer look

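The difference between the Flt1 3′-end probes and the probe 75990 bases upstream was 2.11 log2 larger at 18 h than at 4 h of IL-4 (exact permutation test over 4 against 4 arrays, two-sided, p = 0.0286, the smallest that 4 against 4 freely exchanged arrays allow). With arrays exchanged only within a strain the exact permutation p was 0.0556, and only within pairs of the same strain and replicate number 0.125, the smallest possible in each case. The p below 0.05 thus depends on free exchange, and the pattern was noticed after the values were seen. The rule that flagged it asked for a p below 0.05 in the free permutation. With 4 against 4 arrays that do not overlap, this p is always reached, so the flag is no further evidence. All 4 arrays at 18 h were above all 4 at 4 h, in both strains. The value ran from 1.99 to 2.23 over the other background correction, quantile scaling, the deposited ratios and leaving out each array. No member went one way on all arrays of a strain and the opposite way on all arrays of the other, in 0 of 20 comparisons of a member and a time.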

How the results depend on the processing

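With 2 arrays a group, the number of genes called depended on the fit. With the replicate block, 9, 8, 5 and 6 members were called against mock (C57BL6 4 h, C57BL6 18 h, Balb/c 4 h, Balb/c 18 h), 2 and 1 between 18 h and 4 h (C57BL6, Balb/c), and 4 between the strains in mock; the strain differences of the IL-4 change kept 0. On only the arrays compared, 0 were called at 4 h and 1 at 18 h in Balb/c, and 0 between the strains. Between 18 h and 4 h in Balb/c, 1 member was called with the other background correction, with probes above background on all 12 arrays, with the slide block and with a mean-variance trend. In C57BL6, 1 was called with the trend and with array weights. Leaving out each array gave 0 to 2 members between the strains, 0 to 1 in Balb/c and 0 to 1 in C57BL6 between 18 h and 4 h.

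No called member reversed. Among uncalled ones, the mock strain difference of Pdgfc was -0.14 with the slide block, that of Vegfb ran from -1.17 to 0.029 without an array (positive without Balb/c mock replicate 1), and the change of Vegfa from 4 h to 18 h in Balb/c from -0.11 to 1.31 (negative without Balb/c 4 h replicate 1); the cause was not tested. Of the single-gene values recomputed, 22 lost a call, 46 gained one and 2181 kept their side of the threshold. Of 723 uncalled values smaller than their own standard error, 82 changed sign under a setting.

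Counts over all genes moved by over 1.5 times with some settings, of which the order below is C57BL6 at 4 h, C57BL6 at 18 h, Balb/c at 4 h and Balb/c at 18 h, each against mock. The counts were 620, 822, 262 and 706. They were 3076, 3239, 1308 and 2721 with the replicate block, 300, 468, 118 and 439 without the filter on dim probes, and 69, 371, 0 and 17 on only the arrays compared. Array weights gave 1015, 1300 and 53 in the leading 3, and median scaling 382 in C57BL6 at 4 h. Leaving out an array gave 82 to 671, 212 to 868, 67 to 190 and 311 to 731.

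Between 18 h and 4 h the counts were 179 in C57BL6 and 163 in Balb/c, 1258 and 1027 with the replicate block, 54 and 50 without the filter, 0 and 0 on only the arrays compared, 103 and 96 with median scaling, 905 and 74 with array weights, and 0 to 171 and 0 to 124 without an array. Of the Balb/c genes called, 42 of 163 were higher, against 35 of 96 with median scaling. Between the strains in mock the count was 991, then 3913 with the replicate block, 595 without the filter, 253 on only the arrays compared, 510 with the slide block and 1556 when every kept probe was tested. Leaving out an array gave 450 to 1114, the lowest of these without Balb/c mock replicate 1. Dropping a C57BL6 mock array gave 485 (replicate 1) and 537 (replicate 2).

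The planned normexp background correction gave fitted backgrounds of -958 to -401 on 6 arrays and was not used. A version with the local background capped at 2 times the array median was chosen after seeing the data. It changed 3 to 20 spots on those arrays and gave fitted backgrounds of -20.7 to -6.80 there. The fitted background was negative on 11 of 12 arrays with and without the cap. The Flt1 probe difference was also chosen after seeing the data. Signal over background limits the changes of Edn1 in both strains and of Tgfa in Balb/c at 18 h to approximate bounds. It leaves those of Tgfa at 4 h in Balb/c and in C57BL6 on partly unmeasured arrays.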
